A study of Mus musculus with 11 samples.

Results

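Tmem119, Siglech and Fcrls are 3 genes for proteins on the surface of microglia, the resident macrophages of the brain. Their rows were taken by symbol from the gene count tables, 3 of 24411 gene symbols in each table, and followed across all 11 libraries. The libraries hold polyadenylated RNA of myeloid cells sorted from mouse brain and labelled microglia-like, from a study of gene therapy with blood stem cells in a mouse model of Alzheimer's disease that compared routes of giving competing transplants. The routes were by vein (IV), into the ventricles of the brain (ICV) and into the spinal fluid at lumbar level (ITL). For each route there was 1 library of CD45.1 cells labelled µ, 1 of CD45.1 cells labelled TAµ (here TAµ for short) and 1 of CD45.2 cells labelled µ, which makes 9 libraries in a complete layout. Outside it stood 1 library labelled ICV CD45.2 PBS and 1 labelled CTR µ, whose label gives no CD45 allele.

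CD45.1 and CD45.2 are alleles of the pan-leukocyte antigen CD45 that tell donor from host cells after a transplant. The labels do not say which allele the host carried, what TAµ or PBS stands for, or the age of the mice. They do not assign the Alzheimer's disease model to any library, and they do not say how many animals went into each. Each combination of route and population had a single library, so every p-value below measures spread between routes and populations, not between animals.

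Microglia arise from the yolk sac early in development and renew themselves within the brain, whereas cells that enter the brain after a transplant descend from blood stem cells. Such descendants take up many microglial features, and surface proteins of resident microglia are used to tell the 2 origins apart. Tmem119 encodes a single-pass membrane protein widely used as a marker of resident microglia, and it is also expressed by osteoblasts. Siglech encodes a sialic acid-binding lectin that signals through the adaptor Tyrobp (DAP12) and also marks plasmacytoid dendritic cells. Fcrls encodes a scavenger receptor of the Fc receptor-like family that belongs to the homeostatic expression programme of mouse microglia.

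The 250 bases before the start of Fcrls and Siglech are shown because both genes are microglial and yet their levels moved differently across the libraries. The sequences are from RefSeq, build GRCm38.p6, read 5′ to 3′ on the strand of the gene. The table held 2 of the 3 genes and has no entry for Tmem119. Capitals mark a match to TGTGGTT, a form of the letters bound by RUNX factors, which here lies on the opposite strand.
Fcrls, chr3:87263525-87263774, minus strand: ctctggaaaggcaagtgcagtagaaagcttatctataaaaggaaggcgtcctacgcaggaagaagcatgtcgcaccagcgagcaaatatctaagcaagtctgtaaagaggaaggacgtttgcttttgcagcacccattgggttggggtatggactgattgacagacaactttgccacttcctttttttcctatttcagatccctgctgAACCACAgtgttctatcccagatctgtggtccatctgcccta
Siglech, chr7:55767934-55768183, plus strand: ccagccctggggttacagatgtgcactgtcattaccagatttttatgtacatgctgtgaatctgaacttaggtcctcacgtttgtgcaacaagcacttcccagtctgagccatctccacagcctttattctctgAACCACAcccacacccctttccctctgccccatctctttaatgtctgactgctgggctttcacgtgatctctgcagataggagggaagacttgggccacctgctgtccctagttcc
The letters TGTGGTT occurred once in each window, 42 bases before the start of Fcrls and 116 bases before that of Siglech. They occurred on either strand in 4.4% of 32851 promoter windows of this length. Other forms of the RUNX letters were not counted. The core of ETS factors such as PU.1, GGAAG, occurred 4 times in the Fcrls window and 2 times in the Siglech window, and in 64.1% of all windows. The longer PU.1 letters GAGGAAGT, which contain that core, were in neither window and in 2.44% of all windows. The C/EBP letters TTGCNNAA occurred 1 time in the Siglech window, not in that of Fcrls, and in 9.56% of all windows. The AP-1 letters TGANTCA were in neither window and in 6.75% of all. These matches describe the letters only.

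Total counts per library were lowest at 6090589 (ITL CD45.2 µ) and highest at 21282823 (the CD45.2 µ library by ICV). At this depth the 3 genes were counted well in each library. Counts were 3975 to 16768 for Tmem119, 2355 to 15335 for Siglech and 9267 to 32424 for Fcrls. The number of genes with a count ran from 10477 in IV CD45.2 µ to 15492 in IV TAµ and did not follow depth. The library of 10477 genes had 12938826 counts, while ITL TAµ had 15485 genes from 9513898 counts. Next lowest was the CD45.1 µ library by ICV, at 11456 genes. The part of this difference in the levels was not tested beyond leaving libraries out. Levels are counts per 1000000 of the library total (CPM), and the 95% Poisson half-width of a member's level was at most 4.06% of it, which covers counting error only. The ribosomal precursor Rn45s took 6.98% to 25.1% of the counts, so levels were also computed by other scalings. The inactive X chromosome's RNA Xist was at 0 counts in CTR µ, and 4 Y-linked genes summed to 311 CPM there. In CD45.2 µ Xist ran from 4028 to 6399 CPM, in CD45.1 µ from 295 to 6291 CPM and in TAµ from 12.3 to 429 CPM. The Y-linked sum ran from 1.22 to 45.8 CPM in CD45.2 µ, from 82.0 to 350 CPM in CD45.1 µ and from 184 to 488 CPM in TAµ. PBS had 6118 CPM of Xist and a Y-linked sum of 0.051 CPM. Transcripts that track the sex of the cells thus differed between the libraries compared, and their part in the results below was not tested.

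Other microglial genes were present throughout. Of 30 further microglial surface and homeostatic genes, 1 was at 0 in 1 library (Adora3, in ICV CD45.1 µ), and their summed level was 20267 to 40560 CPM in the 9 libraries, 20194 CPM in PBS and 59866 CPM in CTR µ. In bulk RNA, fewer microglia and less RNA of a gene per cell cannot be told apart. Cell types outside the brain that express Tmem119 or Siglech were looked for by their other genes. Osteoblast genes summed to 7.42 to 71.5 CPM, with 2 of 7 at 0 in all 11 libraries, among them Bglap (osteocalcin). Plasmacytoid dendritic cell genes summed to 455 to 666 CPM, with 1 of 10 at 0 in all 11 libraries, and most of it came from Tcf4, Blnk and Bst2, which other cells express too. Tcf4 had 158 to 310 CPM over the 11 libraries. Blnk, an adaptor of immune receptors, had 149 to 262 CPM in the 9 libraries and 299 CPM in CTR µ, above all of them as Siglech was. Bst2 (tetherin) had 21.7 CPM in CTR µ, below the 45.5 to 186 CPM of the 9 libraries.

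Fcrls was the most abundant of the 3 genes and the steadiest. By the IV route it had 1389 CPM in CD45.1 µ, 1403 CPM in TAµ and 1829 CPM in CD45.2 µ. By ICV it had 1669, 2216 and 1523 CPM in the same order, and by ITL 2171, 1973 and 1522 CPM. PBS had 1197 CPM, the lowest of all, and CTR µ had 1711 CPM, in the middle of the others. The mean of the 9 libraries was 1744 ± 318 CPM (SD), a coefficient of variation of 18.3%.

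Tmem119 varied more. By IV it had 375 CPM in CD45.1 µ, 332 CPM in TAµ and 716 CPM in CD45.2 µ. By ICV it had 459, 516 and 521 CPM, and by ITL 707, 418 and 944 CPM. PBS had 421 CPM and CTR µ 1283 CPM. The CTR µ library stood above all others, followed by ITL CD45.2 µ, IV CD45.2 µ and ITL CD45.1 µ. The mean of the 9 libraries was 554 ± 198 CPM.

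Siglech followed nearly the same order at a lower level. By IV it had 310.2 CPM in CD45.1 µ, 253 CPM in TAµ and 529 CPM in CD45.2 µ. By ICV it had 267, 327 and 293 CPM, and by ITL 397, 248 and 642 CPM. PBS had 191 CPM, below all 9 libraries, and CTR µ had 1174 CPM, above all of them. The mean of the 9 libraries was 363 ± 137 CPM. Among the 9, the 4 highest libraries were ITL CD45.2 µ, IV CD45.2 µ, ITL CD45.1 µ and ICV TAµ, and the other 5 lay between 248 and 310.2 CPM.

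**Figure D1:**
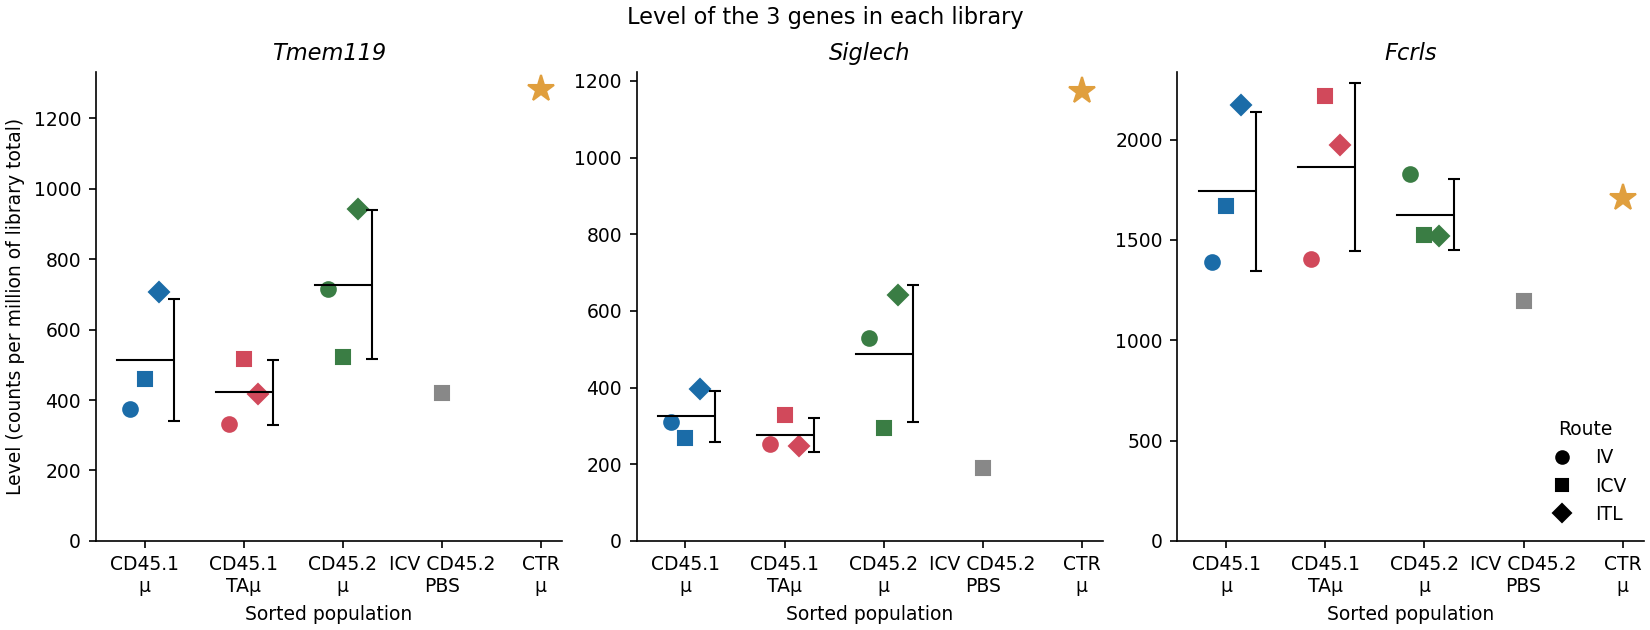
Level of Tmem119, Siglech and Fcrls in each library, in CPM of the library total on axes that start at 0; marker shapes give the route, and the line and bar of each population give the mean and SD of its 3 libraries. CTR µ tops the Tmem119 panel at 1283 and the Siglech panel at 1174, and sits within the range of the others for Fcrls at 1711.

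Between their lowest and highest of the 9 libraries, the genes spanned 2.84-fold (Tmem119), 2.59-fold (Siglech) and 1.60-fold (Fcrls). Over 1909 genes with a mean of at least 100 CPM the median coefficient of variation was 25.1%. Tmem119 at 35.7% varied more than 80.7% of these genes, Siglech at 37.8% more than 84.1%, and Fcrls more than 17.6%. Levels of different genes compare only per length: per kb of exon (GENCODE M21, an annotation of GRCm38 and not of the authors' build), the means over the 9 libraries were 747 CPM for Fcrls, 239 CPM for Tmem119 and 107 CPM for Siglech. Per kb in CTR µ the order was the same but the gaps were smaller, at 733, 554 and 347 CPM.

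CTR µ differed most from the transplant libraries in Siglech. Its Siglech level was 3.23-fold the mean of the 9 libraries and 1.83-fold (95% counting interval 1.76 to 1.89) that of the highest of them, ITL CD45.2 µ. Its Tmem119 level was 2.32-fold that mean and 1.36-fold (1.32 to 1.40) that of the same library. Its Fcrls level was 0.981 of the mean, above 5 of the 9 libraries and below the other 4. By the other 3 scalings the ratio was 2.40 to 2.55 for Tmem119, 3.37 to 3.57 for Siglech and 1.01 to 1.07 for Fcrls, so that of Fcrls turned from just under to just over the mean. CTR µ is 1 library, so these differences have no replicate check. Being above all 9 was shared with 5.25% of the 12420 genes with a mean of at least 1 CPM, and 7.49% were below all 9. Ordered by the signed log2 difference, from lower to higher in CTR µ, Tmem119 stood above 97.4% of these genes, Siglech above 98.8% and Fcrls above 61.6%.

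Among 33 microglial genes, made up of these 3 and the 30 others, the ratio of CTR µ to the mean put Siglech at place 7, Tmem119 at place 13 and Fcrls at place 30. At the top stood Adora3, an adenosine receptor, at 6.55-fold, followed by Sall1, a transcription factor of microglial identity (4.51-fold), the crystallin gene Crybb1 (4.35-fold) and Slc2a5, a fructose transporter (4.28-fold). At the bottom stood P2ry6 (0.974), Aif1, the gene of the IBA1 antigen (0.808), and Gas6, a ligand of the receptor Mertk (0.624). P2ry12, the ADP receptor of microglial processes, had 4907 CPM in CTR µ against 711 to 3328 CPM in the 9 libraries. Of the 30 other genes 20 were above all 9 libraries and 0 below, with a median log2 difference of 0.89 against -0.19 over all genes. Fcrls thus lay with the few microglial genes whose level in CTR µ was near or under that mean on this scale.

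**Figure D2:**
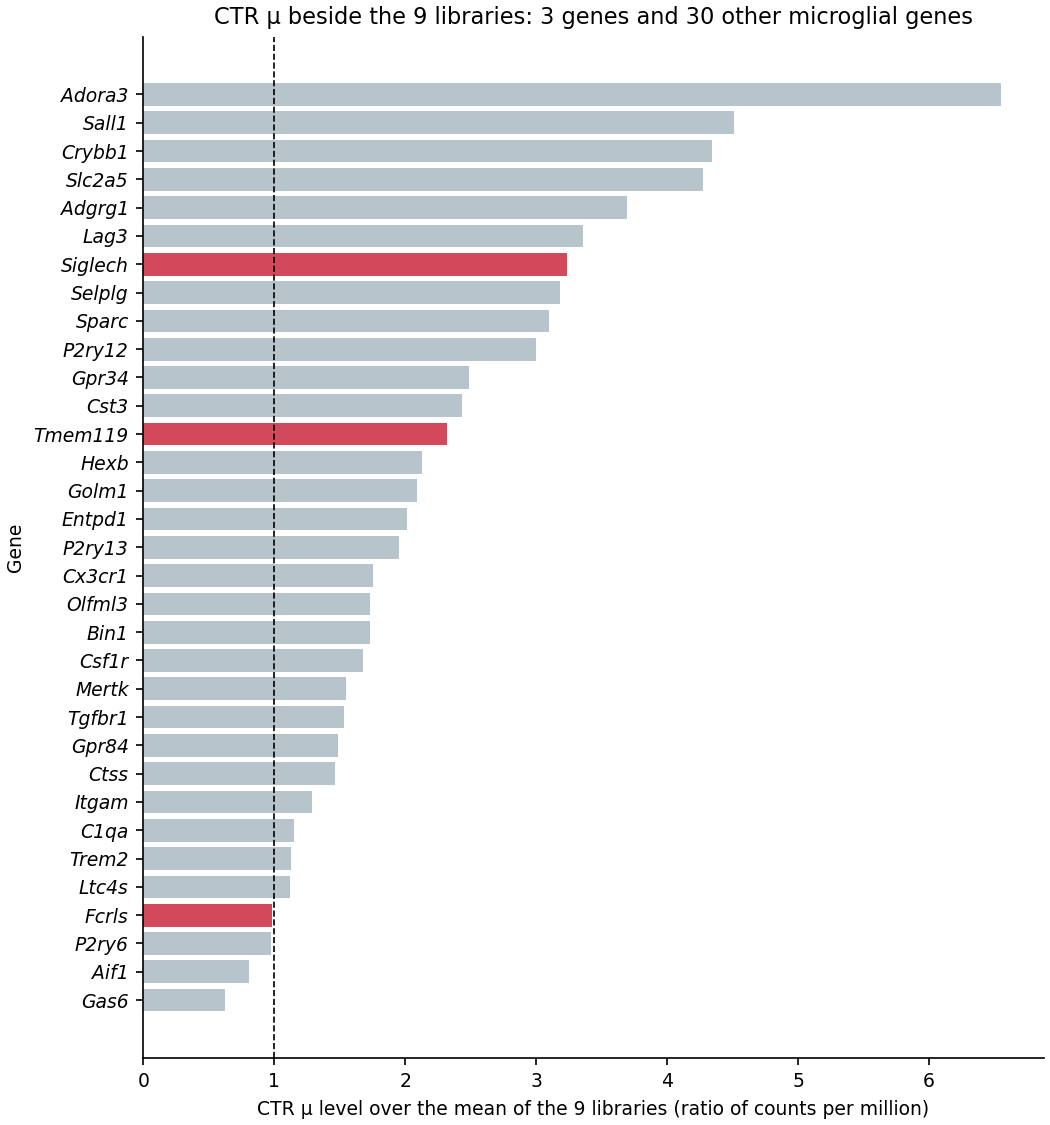
Ratio of the CTR µ level to the mean of the 9 libraries (CPM) for Tmem119, Siglech, Fcrls and 30 other microglial genes, ordered by ratio. Siglech (3.23) and Tmem119 (2.32) lie in the upper part, with Fcrls (0.981) near the bottom, above P2ry6, Aif1 and Gas6.

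The PBS library is compared with ICV CD45.2 µ, which shares its route and allele. PBS had 0.807 of the Tmem119 level of ICV CD45.2 µ (95% counting interval 0.784 to 0.830), 0.652 of its Siglech level (0.626 to 0.679) and 0.786 of its Fcrls level (0.773 to 0.799). All 3 genes were thus lower in PBS than in its partner, in 1 library against 1 and with no replicate check. Siglech and Fcrls were lower in PBS than in any of the 9 libraries, while 3 of the 9 were below PBS in Tmem119 on the library-total scale. CTR µ had 6.14 times the Siglech level of PBS, 3.05 times its Tmem119 level and 1.43 times its Fcrls level.

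By population, Tmem119 averaged 727 ± 211 CPM in CD45.2 µ, 514 ± 173 CPM in CD45.1 µ and 422 ± 92.1 CPM in TAµ (SD, n = 3 routes each). Siglech averaged 488 ± 178, 325 ± 66.0 and 276 ± 44.6 CPM in the same order. The means of Fcrls ran the other way, with 1625 ± 177 CPM in CD45.2 µ, 1743 ± 396 CPM in CD45.1 µ and 1864 ± 417 CPM in TAµ. Among the routes only ICV had that order of Fcrls on the library-total scale, and only ITL had it by the other 3 scalings. No member passed the test in any of the 3 comparisons of populations. The test was edgeR's quasi-likelihood F test of an additive model of route and population, adjusted over 13339 genes by Benjamini-Hochberg at 0.05.

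For TAµ against CD45.2 µ, 0 of 3 members were called where 0.345% of all genes tested were. Tmem119 had a fitted log2 fold change of -0.66 ± 0.25 (SE, 95% interval -1.19 to -0.14, unadjusted p = 0.0163, adjusted p = 0.539) and was lower in TAµ by all 3 routes on the library-total scale. The difference was large by IV, where TAµ had 0.464 of the CD45.2 µ level, and by ITL, where it had 0.443, but near nil by ICV (0.990, counting interval 0.959 to 1.02), where the other 3 scalings turned it to 1.03 to 1.07. On the library-total scale the Tmem119 levels of TAµ (at most 515.8 CPM) lay below those of CD45.2 µ (at least 521.3 CPM), as was so for 5.05% of genes. They overlapped by the other 3 scalings used. Siglech had -0.65 ± 0.27 (-1.22 to -0.085, adjusted p = 0.622), with ratios of 0.477 by IV and 0.385 by ITL but 1.12 by ICV. Fcrls had 0.26 ± 0.23 (-0.23 to 0.75, adjusted p = 0.919), with ratios of 0.767 by IV, 1.45 by ICV and 1.30 by ITL.

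In CD45.2 µ relative to CD45.1 µ, 0 of 3 members were called where 0.03% of genes were. Tmem119 had 0.56 ± 0.25 (0.038 to 1.08, unadjusted p = 0.0369, adjusted p = 0.539) and Siglech 0.59 ± 0.26 (0.031 to 1.15, unadjusted p = 0.0397, adjusted p = 0.542) on the log2 scale. Both were higher in CD45.2 µ by all 3 routes, Tmem119 by 1.91-fold (IV), 1.14-fold (ICV) and 1.33-fold (ITL) and Siglech by 1.71-fold, 1.10-fold and 1.62-fold. Fcrls had -0.031 ± 0.23 (-0.52 to 0.46, adjusted p = 0.978), and its ratio was 1.32 by IV, 0.913 by ICV and 0.701 by ITL. The ICV ratio of Fcrls turned to 1.06 to 1.09 by the other 3 scalings. Its direction by IV and by ITL was opposite under all 4 scalings, while Tmem119 and Siglech were higher in CD45.2 µ by each route under all 4.

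For TAµ against CD45.1 µ, which share the allele, 0 of 3 members were called where 0.075% of genes were. The fitted log2 fold changes were -0.11 ± 0.25 for Tmem119 (-0.63 to 0.42), -0.064 ± 0.27 for Siglech (-0.63 to 0.50) and 0.23 ± 0.23 for Fcrls (-0.26 to 0.72). The routes did not point 1 way: Tmem119 had ratios of 0.884 by IV, 1.12 by ICV and 0.591 by ITL, Siglech 0.814, 1.22 and 0.624, and Fcrls 1.01, 1.33 and 0.909. By the other 3 scalings Fcrls turned to 0.942 to 0.978 by IV and to 1.02 to 1.04 by ITL. The intervals leave room for a difference of up to about 1.65-fold in Fcrls and for either direction in all 3 genes. Comparisons that share a population are not independent of each other.

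The other microglial genes are given for scale, from a list that does not hold the 3 members. For TAµ against CD45.2 µ, 7 of 30 fell and 0 rose, with a median log2 fold change of -0.72 against 0.098 over all genes tested. The 4 with the smallest p were Sall1, Selplg (the P-selectin ligand), Slc2a5 and Adgrg1 (an adhesion receptor also called GPR56). Sall1 fell from 172 to 683 CPM in the CD45.2 µ libraries to 2.23 to 7.99 CPM in TAµ, and the log2 fold change was -2.20 for Selplg, -3.83 for Slc2a5 and -2.90 for Adgrg1 (edgeR adjusted p = 0.00197, 0.00197 and 0.00796). For TAµ against CD45.1 µ, 1 of 30 fell, which was Sall1 (-4.83 ± 0.49, adjusted p = 0.000199), and the list's median was -0.46. In CD45.2 µ relative to CD45.1 µ, 0 of 30 were called by edgeR, 6 had an unadjusted p under 0.05, and the median was 0.29. Of all 13339 genes tested, 1172 had an unadjusted p under 0.05 in that contrast. For TAµ against CD45.2 µ the fitted values of Tmem119 and Siglech (-0.66 and -0.65) thus lay near the list's median, and Fcrls lay on the other side of 0. In CD45.2 µ relative to CD45.1 µ the fitted values of Tmem119 and Siglech, 0.56 and 0.59, were above the median of 0.29. For TAµ against CD45.1 µ they were -0.11 and -0.064, nearer to 0 than the median of -0.46.

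Genes of graft-derived brain macrophages (Apoe, Ms4a7, Axl and 7 others) were summed. On the library-total scale, that sum was lowest in the libraries where Tmem119 and Siglech were highest. The sum was 1090 CPM in CTR µ, 5753 CPM in ITL CD45.2 µ and 8660 CPM in IV CD45.2 µ. These were the 3 libraries with the highest Tmem119 and Siglech levels on that scale. The sum was 21053 to 31939 CPM in the other 7 of the 9 libraries and 24796 CPM in PBS. ITL CD45.1 µ, close behind IV CD45.2 µ in Tmem119 at 707 CPM, had a sum of 25817 CPM. It passed IV CD45.2 µ in Tmem119 by TMM (674 against 659) and without Rn45s (805 against 784). Apoe, the lipid carrier, made up most of the sum in the 9 libraries, with 4194 to 27280 CPM. Not every gene of the list followed the sum: Lpl, a lipase, was highest of the 9 in IV CD45.2 µ, at 120 CPM. In CTR µ Apoe had 530 CPM and Cd74, the MHC class II chaperone, 415 CPM, below all 9 libraries each. Border-associated macrophage genes summed to 881 CPM in CTR µ and 1892 to 5901 CPM in the 9 libraries. Their Mrc1, the mannose receptor CD206, rose in TAµ against CD45.2 µ (log2 fold change 1.49, edgeR adjusted p = 0.0303). Of the other genes on the 17 lists, outside the microglial one, only Mpo and Slc1a3 were called by edgeR in the 6 contrasts. Both calls were in that same contrast, where Mpo, the neutrophil myeloperoxidase, rose and the astrocyte transporter gene Slc1a3 fell. Mpo had 0 to 0.386 CPM in CD45.2 µ and 2.73 to 93.3 CPM in TAµ. It was the only 1 of 8 neutrophil genes fitted higher there, and the other 7 were lower, with a list median of -0.60. The sums ran from 137 to 1095 CPM for monocyte genes, 1.39 to 12890 CPM for neutrophil genes and 4.75 to 1399 CPM for choroid plexus genes in the 9 libraries. They ran from 59.0 to 613 CPM for astrocyte, 106 to 1197 CPM for oligodendrocyte, 14.99 to 348 CPM for endothelial and mural, 0 to 16.9 CPM for neuron, 0 to 10.2 CPM for T and NK cell and 0 to 10.1 CPM for B cell genes. The part of these cells in the levels of the 3 genes was not tested.

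By route, Tmem119 averaged 474 ± 210 CPM by IV, 499 ± 34.4 CPM by ICV and 690 ± 263 CPM by ITL (SD, n = 3 populations each). Siglech averaged 364 ± 146, 296 ± 30.03 and 429 ± 199 CPM, and Fcrls 1540 ± 250, 1803 ± 365 and 1889 ± 333 CPM in the same order. Among the 3 populations Tmem119 ran from 459 to 521 CPM and Siglech from 267 to 327 CPM by ICV, a narrower range than by IV and ITL. With TMM scaling the ICV ranges were wider, at 417 to 588 and 243 to 373.

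No member was called between routes by edgeR, while limma-voom called Fcrls for ITL against IV (log2 fold change 0.556, adjusted p = 0.0466). In that contrast the alternatives that did not leave out single libraries, limma-voom among them, called 10 to 223 of all genes. For ITL against IV, 0.217% of genes were called by edgeR, and 714 of 13339 had an unadjusted p under 0.05. Of the members Tmem119 came nearest by edgeR, with 0.60 ± 0.25 on the log2 scale (0.076 to 1.12, unadjusted p = 0.0271, edgeR adjusted p = 0.833) and a higher level by ITL in all 3 populations. Siglech had 0.26 ± 0.26 (-0.30 to 0.81) and Fcrls 0.33 ± 0.23 (-0.17 to 0.82), each higher by ITL in 2 of 3 populations. Siglech in TAµ, at 0.980 of its IV level by ITL, turned to 1.11 to 1.17 by the other 3 scalings. For ICV against IV, 0% of genes (0 of 13339) were called by edgeR, although 1230 had an unadjusted p under 0.05 and DESeq2 and limma-voom called 147 and 26. Tmem119 had 0.30 ± 0.25 (-0.23 to 0.82), Siglech -0.078 ± 0.27 (-0.64 to 0.49) and Fcrls 0.33 ± 0.23 (-0.16 to 0.83). For ITL against ICV, likewise 0% of genes were called by edgeR, with 506 at an unadjusted p under 0.05, and 32 and 1 were called by DESeq2 and limma-voom. Tmem119 had 0.30 ± 0.25 (-0.22 to 0.83), Siglech 0.33 ± 0.27 (-0.23 to 0.90) and Fcrls -0.0048 ± 0.23 (-0.50 to 0.49). Of the 30 other microglial genes, 0 were called by edgeR between any routes, with 4, 7 and 6 at an unadjusted p under 0.05 for ICV against IV, ITL against IV and ITL against ICV. Their fitted values were higher by ITL than by IV in 26, with a median of 0.41.

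**Figure D3:**
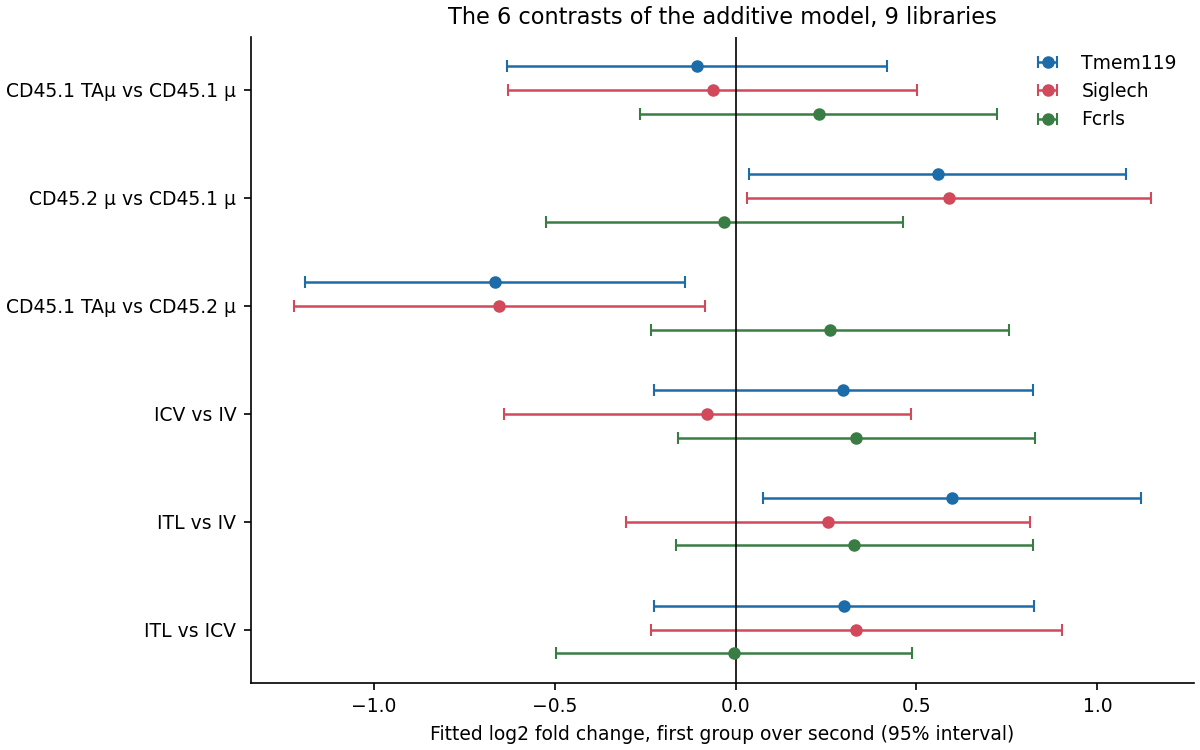
Fitted log2 fold changes of Tmem119, Siglech and Fcrls in the 6 contrasts of the additive model over 9 libraries, with 95% intervals; positive values are higher in the first group named. Tmem119 and Siglech lie side by side in the contrasts with CD45.2 µ (0.56 and 0.59, -0.66 and -0.65), where Fcrls lies at -0.031 and 0.26.

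A ratio of 2 genes within a library does not depend on how libraries are scaled. Counts of Fcrls per count of Tmem119 were 4.23, 4.30 and 4.72 in TAµ by IV, ICV and ITL. They were 3.70, 3.63 and 3.07 in CD45.1 µ and 2.56, 2.92 and 1.61 in CD45.2 µ. The 3 populations did not overlap in this ratio, and their means were 4.42 ± 0.267, 3.47 ± 0.347 and 2.36 ± 0.676 (SD, n = 3). PBS, at 2.85, lay among the CD45.2 µ libraries, with which it shares the allele, and CTR µ was lowest at 1.33. Each pair of populations gave an exact two-sided permutation p = 0.1, the smallest that 3 against 3 libraries allow. Groups seen not to overlap can give no other value, so these tests add nothing to the values and cannot reach 0.05. They also left out the layout of routes. The tests of these ratios were added after the values were seen.

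The order has to be read against the other genes. In their ratio to Tmem119, 9.16% of 12419 genes were likewise higher in TAµ than in CD45.1 µ without overlap, 24.8% were so against CD45.2 µ, and 10.4% were higher in CD45.1 µ than in CD45.2 µ. The whole order of TAµ over CD45.1 µ over CD45.2 µ without overlap, counted after it was seen for Fcrls, was shared by 30 genes or 0.242%. A ratio lower in CTR µ than in all 9 libraries was common, at 41.3% of genes.

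Siglech per count of Tmem119 separated the routes instead. By IV it was 0.827, 0.761 and 0.740 in CD45.1 µ, TAµ and CD45.2 µ, by ICV 0.582, 0.634 and 0.563, and by ITL 0.561, 0.592 and 0.680. The 3 IV libraries were above the 6 others, a pattern noticed in these values and shared by 5.15% of genes in their ratio to Tmem119. The means were 0.776 ± 0.0454 by IV, 0.593 ± 0.0370 by ICV and 0.611 ± 0.0618 by ITL (SD, n = 3). IV against ICV and IV against ITL each gave an exact two-sided permutation p = 0.1, again the smallest possible. The value 0.1 was also the adjusted value over the 5 ratio comparisons. As groups seen not to overlap can give no other value, these tests add nothing to the ratios. They also left out the layout of populations. PBS had the lowest ratio at 0.455 and CTR µ the highest at 0.915. Fcrls per count of Siglech was lowest at 2.37 (ITL CD45.2 µ) and highest at 7.97 (ITL TAµ), with 6.26 in PBS and 1.46 in CTR µ.

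**Figure D4:**
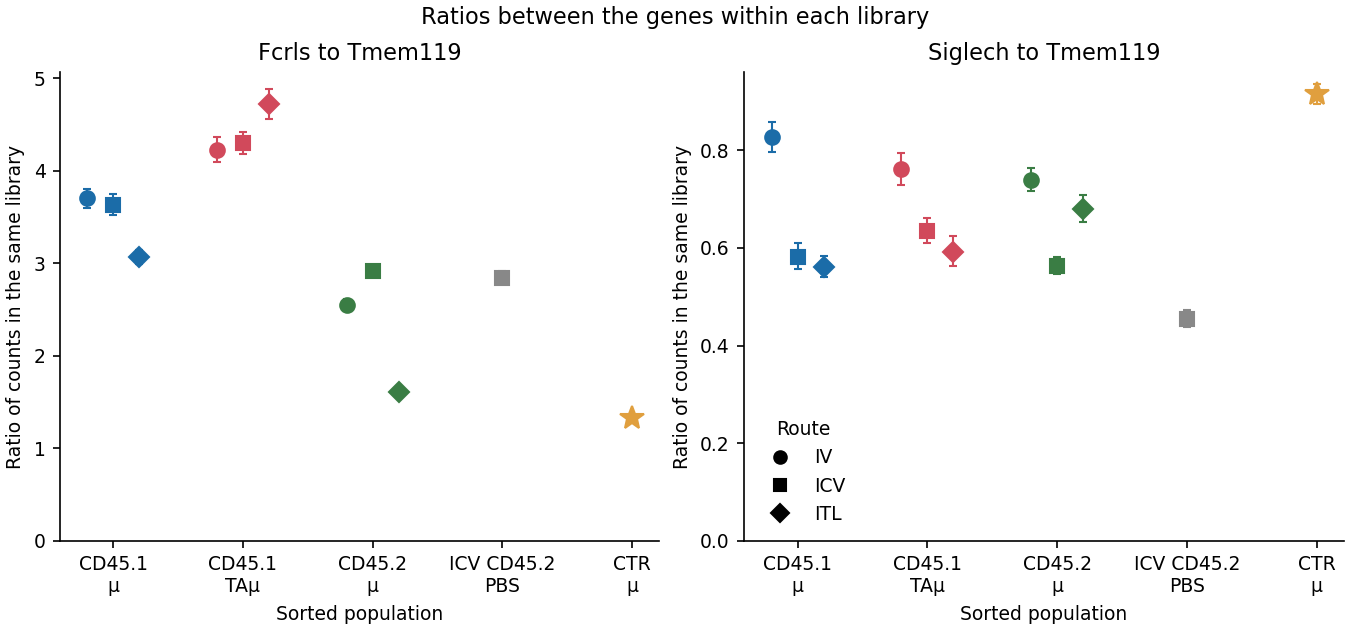
Ratio of Fcrls to Tmem119 counts (left) and of Siglech to Tmem119 counts (right) in each library, by population on the x axis and route by marker shape; bars are 95% counting intervals. In the left panel the TAµ libraries (4.23 to 4.72) lie above the CD45.1 µ libraries (3.07 to 3.70) and these above the CD45.2 µ libraries (1.61 to 2.92), and in the right panel the 3 IV libraries (0.740 to 0.827) lie above the other routes.

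Levels were also set against the summed level of the 30 other microglial genes. Tmem119 made 1.40% to 2.38% of that sum in the 9 libraries, 2.08% in PBS and 2.14% in CTR µ, which lay inside the range. Siglech made 0.979% to 1.62% of it in the 9 libraries, 0.947% in PBS and 1.96% in CTR µ, which lay outside it. Fcrls made 3.84% to 8.38% in the 9 libraries, of which the 3 highest shares, 6.92%, 8.38% and 8.18%, were the TAµ libraries by IV, ICV and ITL. In CTR µ Fcrls made 2.86%, less than in any of the 9 libraries. The sum itself was lowest of the 9 in these TAµ libraries, at 20267, 26461 and 24117 CPM by IV, ICV and ITL, and highest of all in CTR µ, at 59866 CPM. A gene of equal level in every library would thus also have its 3 highest shares of the 9 in TAµ and its lowest in CTR µ. How many other genes had this order was not counted. The sum is led by a few abundant genes, so these shares describe the libraries and carry no test.

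Across libraries Tmem119 and Siglech moved together and Fcrls apart. Pearson's r of the log2 levels of Tmem119 and Siglech was 0.93 over 11 libraries and 0.91 over the 9. For Fcrls it was 0.31 and 0.31 with Tmem119, and 0.26 and 0.077 with Siglech. These are descriptions over libraries that share routes, populations and composition. Among 8079 genes with a mean of at least 3 log2 CPM, the genes with the pattern most like Tmem119 over 11 libraries were Sirpa, the CD47 receptor (r = 0.97), Agmo, an ether lipid oxygenase (0.96), P2ry12 (0.95), Cd81, a tetraspanin (0.95), and Marcks, an actin-binding protein (0.95). Over the 9 libraries they were Cd81, Sirpa, Pros1 (protein S), Agmo and Ptgs1 (cyclooxygenase 1), 3 of them in common.

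Most like Siglech over 11 libraries were Cxxc5 (0.95), Entpd1, the ectonucleotidase CD39 (0.94), Agmo (0.94), the organic anion transporter Slco2b1 (0.94) and Tmem119 (0.93). Over the 9 they were Otud7b, a deubiquitinase (0.96), Snn (0.95), Rtn4rl1 (0.94), Pear1 (0.94) and Cxxc5 (0.93), with only Cxxc5 in common, so the neighbours of Siglech turn on the 2 libraries outside the layout. Most like Fcrls over 11 libraries were Stard3nl (0.91), Itm2b (0.91), the glycogen branching enzyme Gbe1 (0.90), Cd276 (0.89) and Arl6ip1 (0.87). Over the 9 they included Stard3nl (0.93), Gbe1, Itm2b and Ptchd1 (0.89), 3 in common. Tmem119 was the fifth neighbour of Siglech over 11 libraries, and neither Tmem119 nor Siglech was among the neighbours of Fcrls.

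Known partners and family relatives of the 3 genes were followed as well. Tyrobp, the adaptor of Siglech, had 438 CPM in CTR µ, inside the 272 to 643 CPM of the 9 libraries, and none of the 5 genes of that signalling list (Tyrobp, Hcst, Syk, Zap70, Plcg2) was called by edgeR in any of the 6 contrasts, with 0 at an unadjusted p under 0.05. None of the 7 Siglec family genes tested was called in any contrast either, with 1, 1, 2, 3, 1 and 1 at an unadjusted p under 0.05. Siglec1, the sialoadhesin of border macrophages, had 12.4 CPM in CTR µ, below the 33.2 to 238 CPM of the 9 libraries, the opposite direction to Siglech. Cd33 had 529 CPM in CTR µ against 428 to 790 CPM, and Siglece, an inhibitory lectin, 55.6 CPM against 24.3 to 120.3 CPM. Lower levels were seen for Cd22 (8.88 CPM in CTR µ, 4.43 to 47.2 CPM in the 9), Mag of myelin (18.4, and 0.541 to 46.7 CPM), Siglecf (13.3, and 0 to 46.8 CPM) and Siglecg (0.765, and 0 to 9.68 CPM).

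Of the Fc receptor-like family besides Fcrls, only Fcrl1 passed 5 CPM. It had 37.9 CPM in CTR µ, above the 15.5 to 32.8 CPM of the 9 libraries, and 24.3 CPM in PBS. It was called in 0 of 6 contrasts by edgeR. Fcrl5, Fcrla and Fcrlb had at most 3.93 CPM in any library, and Fcrl6 had no count in any.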

How the data were processed

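Polyadenylated RNA of sorted brain myeloid cells was sequenced in 11 libraries. The authors deposited counts, 1 table of whole-number reads per gene symbol for each library, unnormalized. Per the submitters' processing notes reads were aligned with STAR to mm39 (GRCm39). The STAR version, annotation, strand setting and filters were not given in the sources used here. All columns belonged to a library (0 were left over).

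The 9 libraries of 3 routes by 3 populations were fitted in 1 additive model (4 residual degrees of freedom) in R 4.3.3 with edgeR 4.0.16: filter by expression (minimum count 10, minimum total 15), TMM scaling, quasi-likelihood F test without the legacy option, Benjamini-Hochberg adjustment at 0.05. The SE is the fitted log2 fold change divided by the square root of F, and intervals are 95%. CTR µ and PBS stayed out of the model, and their ratios carry exact counting intervals. Since reads carried no molecular identifiers, they may repeat a molecule, and such intervals cover counting error only. Levels are CPM of the library total, and logarithms used a prior count of 2. Alternatives used limma 3.58.1, DESeq2 1.42.0, other scalings, filters, designs and libraries. The model was also run on simulated data that held no route effect. The outcome is not reported here, and no statement above rests on it.

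The 3 genes, the 17 gene lists (142 genes, 140 in the tables) and the tests were chosen with earlier results of these data known. The rule for named genes took the 3 members, the 5 genes of most like pattern per member, up to 4 genes per list and comparison, and Siglec and Fc receptor-like genes above 5 CPM. Exceptions named after their values were seen are Apoe, Cd74, Blnk, Ms4a7, Axl, Lpl, Bglap, Tcf4, Bst2, P2ry12, P2ry6, Aif1, Gas6, the Siglech signalling genes, Xist, and Fcrl genes at lower levels. Unnamed predicted genes were passed over. Of the genes of most like pattern, 1 is not reported here.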

Additional observations from a re-analysis of the deposited data

Results flagged for a closer look

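Several ratios between populations pointed opposite ways by route, each with its 95% counting interval on its own side of 1 on the library-total scale. With 1 library per route and population, the differences between routes were not tested. For TAµ against CD45.1 µ, Tmem119 had a ratio of 1.12 by ICV and 0.591 by ITL, Siglech 1.22 and 0.624, and Fcrls 1.33 and 0.909. The ITL ratio of Fcrls turned to 1.02 to 1.04 by the other 3 scalings, so Fcrls pointed opposite ways between ICV and ITL on the library-total scale alone. For TAµ against CD45.2 µ, Siglech had 1.12 by ICV and 0.385 by ITL, and Fcrls had 1.45 by ICV and 0.767 by IV. In CD45.2 µ relative to CD45.1 µ, Fcrls had 1.32 by IV and 0.701 by ITL. The other ratios named here kept their side of 1 under all 4 scalings.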

How the results depend on the processing

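No paired analysis was possible because the labels give neither animals nor replicate numbers. Over the 3 genes and 6 contrasts, 198 refits with another scaling, filter, tool, design or set of libraries kept direction and side of the threshold in 193. Fcrls for ITL against IV passed with limma-voom (log2 fold change 0.556, adjusted p = 0.0466), the lowest adjusted p of any member under any alternative. Direction turned for Fcrls in TAµ against CD45.1 µ (-0.00956) and Siglech in ICV against IV (0.26) when a pair was left out. The pair was IV CD45.2 µ with ICV CD45.1 µ, the libraries with the fewest genes counted. Direction also turned for Fcrls in ITL against ICV with the library total alone (0.073) and with the filter of 10 CPM in 3 libraries (0.012). The cause was not tested. The legacy fit was chosen after seeing the data.

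Leaving out each of the 9 libraries in turn gave 162 refits, of which 20 turned direction and 0 passed. In TAµ relative to CD45.1 µ the log2 fold changes then ran for Tmem119 from -0.45 to 0.11, for Siglech from -0.48 to 0.18 and for Fcrls from 0.028 to 0.45. In the same order of genes, for CD45.2 µ relative to CD45.1 µ, they ran from 0.38 to 0.75, 0.43 to 0.83 and -0.28 to 0.16. In TAµ relative to CD45.2 µ they ran from -1.01 to -0.46, -1.07 to -0.41 and 0.042 to 0.51. For ICV against IV they ran from -0.038 to 0.52, -0.49 to 0.20 and 0.13 to 0.61. For ITL against IV they ran from 0.46 to 0.83, 0.098 to 0.51 and 0.16 to 0.61. For ITL against ICV they ran from 0.12 to 0.67, 0.093 to 0.77 and -0.17 to 0.24. The CTR µ ratio ran from 2.21 to 2.54, 3.11 to 3.58 and 0.957 to 1.02. By TMM, without Rn45s and by DESeq2's size factors, PBS over ICV CD45.2 µ was 0.734, 0.730 and 0.731 for Tmem119, 0.593, 0.590 and 0.591 for Siglech, and 0.715, 0.711 and 0.712 for Fcrls. The count of all genes called was 10 for TAµ against CD45.1 µ (0 to 24 with a library left out, 2 to 217 otherwise), 4 for CD45.2 µ relative to CD45.1 µ (0 to 29, 0 to 278) and 46 for TAµ against CD45.2 µ (5 to 159, 22 to 195). It was 0 for ICV against IV (0 to 28, 0 to 147), 29 for ITL against IV (0 to 35, 10 to 223) and 0 for ITL against ICV (0 to 3, 0 to 32). Leaving out IV TAµ gave the 0 for TAµ against CD45.1 µ and for ITL against IV and the 5, and leaving out ICV CD45.2 µ gave the 29 and the 159.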
